A study of Arabidopsis thaliana with 4 samples.

Results

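The 9 genes described here, out of 33602 in the deposited table, encode the floral integrators and the factors they act with in Arabidopsis thaliana. They were taken by gene identifier, with no threshold on a value: SOC1, AGL42, AGL14, AGL19, AGL24, FUL, AP1, LFY and SEP3. The groups were 2 libraries of the jmj28-3 line and 2 of WT, labelled Col-0, each made from polyadenylated RNA of whole seedlings. JMJ28, the gene the line is named for, encodes a jumonji-domain protein, and the kind of lesion and the number of lines behind jmj28-3 are not given in the labels. Seedlings of both genotypes were 12 days old and grew at 23 °C in long days (16 h light and 8 h dark) on medium with 1% sucrose. No label says that replicates were separate cultures, so a p-value here sets genotypes against a spread that could be technical.

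Flowering starts when signals from day length, temperature, age and gibberellin meet at a small group of genes in the shoot apex. FT protein made in leaves moves to the apex, binds the bZIP factor FD and switches on SOC1, a MADS-domain factor that FLC and SVP hold off. SOC1 with AGL24 activates LFY, and LFY and AP1 then set the identity of the floral meristem. MADS-domain proteins act as dimers and larger complexes, and SEP3 joins many of them in the flower. Several relatives of SOC1 also act in roots, which whole seedlings include.

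Values were FPKM, fragments scaled by transcript length and by library size, so levels of different genes can be set side by side. Steps between low values put the depth at about 19200000 and 15600000 fragments in jmj28-3 and about 16000000 and 17500000 in WT. The JMJ28 transcript had 3.65 and 3.33 FPKM in jmj28-3, against 3.80 and 5.54 FPKM in WT, which did not pass the test (adjusted p = 0.327, limma), so its level does not check the genotype. Leaf markers dominated every library, with RBCS1A, for a small subunit of Rubisco, at 25550 and 25338 FPKM in jmj28-3 and 27686 and 24835 FPKM in WT. The shoot meristem genes STM and KNAT1 were detected in all 4 libraries. WUS, which marks the organizing centre of that meristem, was listed at 0 in all 4, and CLV3, a stem cell marker, had a value in jmj28-3 replicate 1 alone, of 0.31 FPKM. In RNA of whole seedlings, fewer cells of a type and less RNA per cell cannot be told apart.

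SOC1 (AT2G45660, also AGL20) was the most abundant of the 9 genes in every library and the member called different between genotypes. In the TAIR10.1 build it covers chromosome 2 from 18807505 to 18811125 (minus strand) with 2 annotated mRNAs, and the positions below are of the same build. Its level was 12.75 and 11.26 FPKM in jmj28-3, against 22.23 and 19.26 FPKM in WT. Both jmj28-3 libraries lay below both WT libraries, and the gap between genotypes was wider than the gap between replicates of either. Among 4587 genes within 1.5-fold of the mean SOC1 level, 78% had a smaller replicate gap in jmj28-3 and 80.8% in WT. The mean was 12.0 ± 1.05 FPKM in jmj28-3 and 20.7 ± 2.1 FPKM in WT (SD, n = 2 each), 1.73-fold lower in jmj28-3. On the log2(FPKM + 1) scale SOC1 fell by 0.74 (95% interval -0.999 to -0.48, adjusted p = 0.0166, limma). About 360 and 260 fragments stood behind the jmj28-3 values and about 520 and 490 behind those of WT. The call was lost without any 1 library, with the change between -0.84 and -0.64. Such a fit leaves 1 library in a genotype and 1 residual degree of freedom. A call lost in it, here or for the genes below, does not show that a result rests on a particular library.

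Tests were run on genes with a mean of at least 0.5 FPKM, which 7 of the 9 genes reached. Of these 7, SOC1 was called lower and none was called higher at an adjusted p under 0.05. Over all 20232 genes tested, limma called 7.97%, with 3.79% lower and 4.18% higher. At an unadjusted p under 0.05 there were 2 of the 7 members, SOC1 and AGL42, both lower, where 24.2% of all tested genes had such a p in either direction, so this share was near the background. The median log2 change was -0.20 over the 7 members and -0.029 over all tested genes. AP1 and LFY, below the minimum, were not tested.

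**Figure D1:**
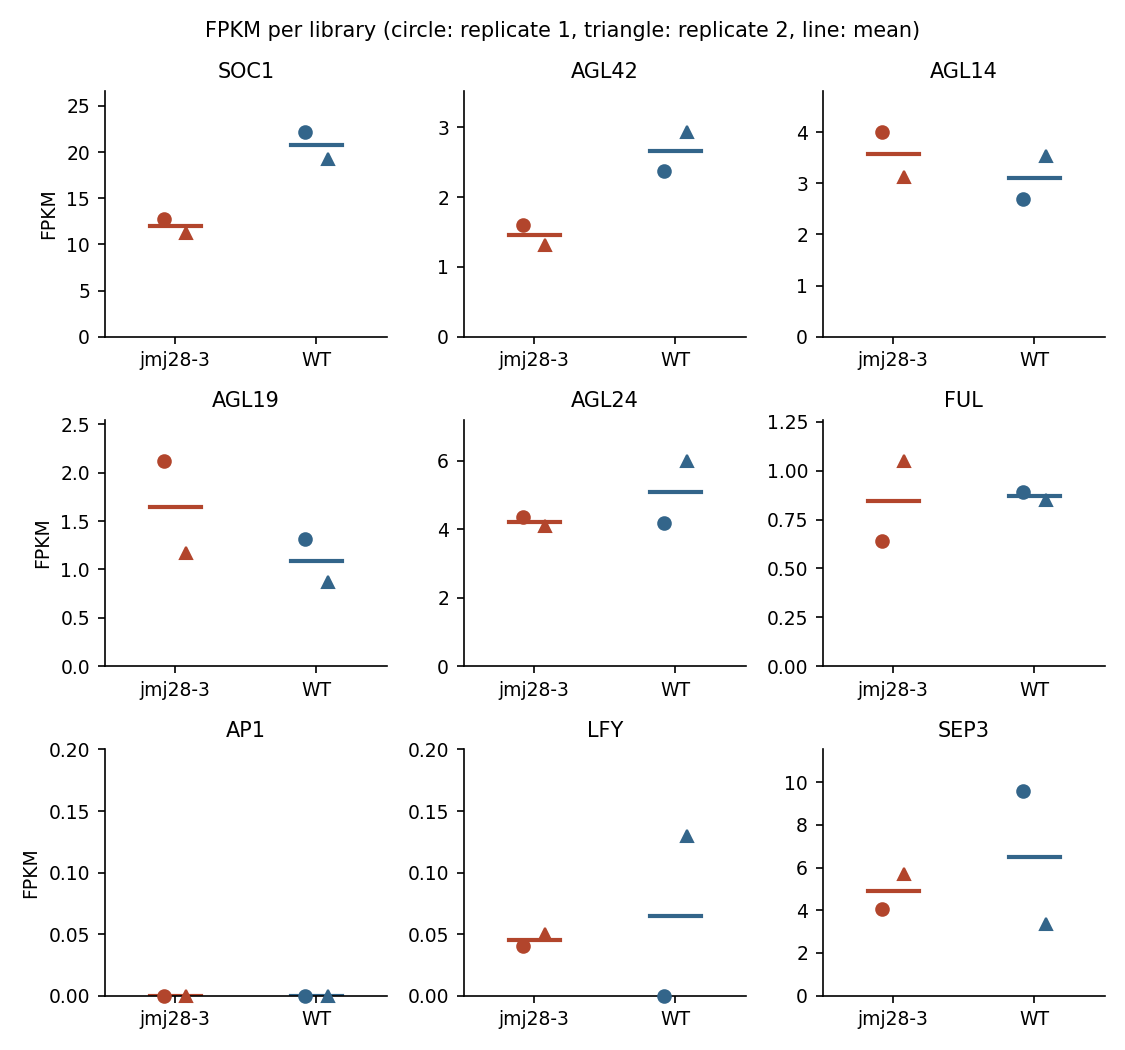
FPKM of each of the 9 genes (vertical axes, own scale per gene, from 0) in jmj28-3 and WT, with a point per library and a line at the mean of 2. Libraries of the 2 genotypes are apart for SOC1 and AGL42, overlap for AGL14, AGL19, AGL24, FUL, LFY and SEP3, and are all at 0 for AP1.

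AGL42 (AT5G62165, chromosome 5 at 24964646 to 24968607, plus strand) had the profile most like that of SOC1 among the members. It belongs to the same MADS clade, promotes flowering and is also known from the quiescent centre of the root. AGL42 had 1.60 and 1.31 FPKM in jmj28-3, against 2.37 and 2.94 FPKM in WT, again with no overlap between genotypes. The ratio of means was 1.82-fold lower in jmj28-3, against 1.73-fold for SOC1. With about 35 and 23 fragments in jmj28-3 and about 43 and 59 in WT, AGL42 did not pass (log2 change -0.57, 95% interval -0.95 to -0.19, adjusted p = 0.0861, limma). Libraries lay apart with jmj28-3 lower for 2 of the 7 tested members, where 32.7% of all tested genes did so. Scaled to SOC1 in the same library, AGL42 stood at 12.5% and 11.6% in jmj28-3 and at 10.7% and 15.3% in WT, so the ratio of the pair overlapped between genotypes.

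Upstream sequence of both genes is shown because MADS-domain dimers bind the CArG box, CC and GG around a run of 6 A or T bases, and because these are the members with lower values in both jmj28-3 libraries. A search of the 1000 bases upstream of the annotated gene start found that motif in SOC1 and AGL42 and in none of the other 7 members. The pattern, though not the letters of each match, is the same on both strands, and no other motif was searched. Among 27432 protein-coding genes of the nuclear chromosomes, 7.22% had a match in a window of that length. Of 31 other genes of the MADS-box family described below, 3 had one (9.68%). Windows of 300 and 500 bases, looked at first, held none in any member. The search was added after the values were seen. The SOC1 stretch lies on the minus strand at chr2:18811782-18811881 of TAIR10.1, with the motif starting 711 bases before the gene start. The AGL42 stretch lies on the plus strand at chr5:24964003-24964102, with the motif starting 598 bases before it. Neither stretch overlaps an annotated gene, and capitals mark the motif.
SOC1: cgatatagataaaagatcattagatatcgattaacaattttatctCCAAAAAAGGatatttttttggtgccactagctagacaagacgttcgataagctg
AGL42: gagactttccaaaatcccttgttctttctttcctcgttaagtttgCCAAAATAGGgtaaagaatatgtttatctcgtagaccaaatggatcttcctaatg
A match is a description of the letters and not evidence of binding. The same window held the motif in 7.46% of genes called lower, in 7.53% of those called higher and in 7.26% of all tested genes, so its share was near the background in both directions.

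The remaining clade members did not follow SOC1. AGL14 (AT4G11880, chromosome 4 at 7142922 to 7147391, plus strand), also known as XAL2 and needed for root growth and flowering, had 4.01 and 3.12 FPKM in jmj28-3, against 2.69 and 3.53 FPKM in WT. The ranges overlap, and the interval of the log2 change ran from -0.26 to 0.56 around 0.15 (adjusted p = 0.631, limma). AGL19 (AT4G22950, chromosome 4 at 12023824 to 12028004, minus strand), which promotes flowering after cold and is repressed by Polycomb proteins, had 2.12 and 1.17 FPKM in jmj28-3 and 1.31 and 0.87 FPKM in WT (log2 change 0.32, interval -0.25 to 0.90, adjusted p = 0.453, limma). It rested on about 46 and 21 fragments in jmj28-3 and about 24 and 17 in WT. Because SOC1 was lower while AGL14 was not, AGL14 stood at 31.5% and 27.7% of SOC1 in jmj28-3, against 12.1% and 18.3% in WT. SOC1 made up 62.3% and 66.8% of the summed FPKM of the 4 clade members in jmj28-3, and 77.7% and 72.4% in WT. These shares were not tested and stand as values. The last clade relatives, AGL71 and AGL72, were at or near 0, with 0.07 FPKM in WT replicate 2 as the highest value.

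**Figure D2:**
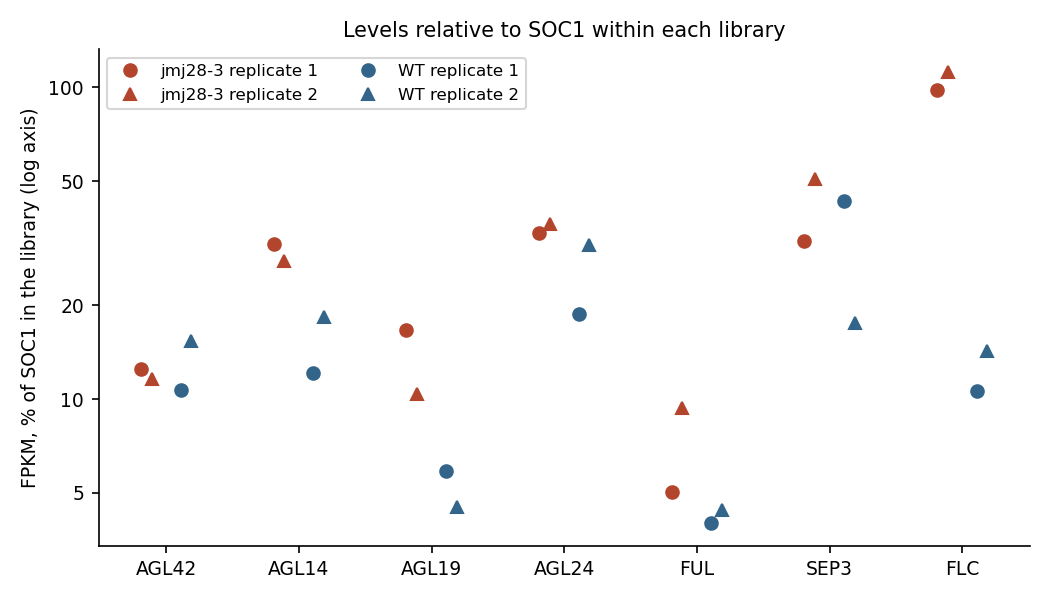
FPKM of 6 members and of FLC as a percentage of SOC1 in the same library (log axis), jmj28-3 left of WT, with circles for replicate 1 and triangles for replicate 2. AGL42 stays between 10.7% and 15.3% in all 4 libraries, while FLC stands at 97.7% and 112% in jmj28-3 and at 10.6% and 14.3% in WT.

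AGL24 (AT4G24540, chromosome 4 at 12670897 to 12674106, minus strand), the partner of SOC1 in activating LFY, had 4.35 and 4.09 FPKM in jmj28-3, against 4.17 and 5.99 FPKM in WT. Only WT replicate 2 was high, and the genotypes overlap. The log2 change was -0.20 (interval -0.62 to 0.21, adjusted p = 0.514, limma), and 0.013 without WT replicate 2. FUL (AT5G60910, also AGL8, chromosome 5 at 24502434 to 24506269, minus strand), a MADS-domain factor that acts beside SOC1 in the meristem and later in fruit, had 0.64 and 1.05 FPKM in jmj28-3 and 0.89 and 0.85 FPKM in WT. It rested on about 13 to 17 fragments per library, and its log2 change of -0.028 had an interval of -0.48 to 0.42 (adjusted p = 0.946, limma). At so low a level this scale shrinks a change, so the interval does not bound the fold tightly.

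The genes that set floral meristem identity were close to silent in both genotypes. AP1 (AT1G69120, chromosome 1 at 25982294 to 25986349, minus strand) was listed at 0 in all 4 libraries. LFY (AT5G61850, chromosome 5 at 24844248 to 24846989, plus strand), the factor that activates AP1, had 0.04 and 0.05 FPKM in jmj28-3, against 0 and 0.13 FPKM in WT, or about 1 and 1 fragments against 0 and 3. At that depth a difference in LFY between genotypes was not detectable. CAL, the near relative of AP1, reached 0.15 FPKM at most. Floral organ genes gave the same picture: AG, AP3, PI, SHP1, SHP2 and STK lay between 0 and 0.52 FPKM, and none reached the minimum for a test.

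SEP3 (AT1G24260, chromosome 1 at 8593536 to 8596123, minus strand), a cofactor of floral MADS-domain complexes, was the exception, as the second most abundant member. It had 4.08 and 5.71 FPKM in jmj28-3, against 9.61 and 3.37 FPKM in WT. The 2 WT libraries enclosed both jmj28-3 libraries and lay 2.85-fold apart, with about 190 fragments in WT replicate 1 and about 71 in WT replicate 2. Among 3838 genes within 1.5-fold of its mean level, 99.6% had a smaller gap between the WT replicates. In jmj28-3, 93% of the same genes had a smaller gap than that of SEP3. The log2 change was therefore wide, -0.22 with an interval of -1.26 to 0.81 (adjusted p = 0.796, limma), and it was 0.42 without WT replicate 1 and -0.86 without WT replicate 2, called in neither case. Its relative SEP4 was steadier, at 5.99 and 4.56 FPKM in jmj28-3 and 6.90 and 7.69 FPKM in WT (log2 change -0.41, adjusted p = 0.152, limma). SEP1 had 0.24 and 0.45 FPKM in jmj28-3 and 0.60 and 0.75 FPKM in WT (log2 change -0.32, adjusted p = 0.359, limma). For SEP4 and SEP1 both jmj28-3 libraries lay below both of WT, where 32.7% of all tested genes did so. SEP2 stayed at or below 0.11 FPKM.

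By mean FPKM over the 4 libraries the order was SOC1 (16.4), SEP3 (5.69), AGL24 (4.65), AGL14 (3.34), AGL42 (2.06), AGL19 (1.37), FUL (0.858), LFY (0.055) and AP1 (0). SOC1 did not overlap SEP3, AGL24 did not overlap AGL14 and FUL did not overlap LFY in either genotype. AGL24 and AGL14 were close in jmj28-3, where the lowest AGL24 value was 4.09 FPKM and the highest AGL14 value 4.01 FPKM. SEP3 and AGL24 overlapped in both. AGL14 and AGL42 overlapped in WT and were apart in jmj28-3, and so were AGL19 and FUL. AGL42 and AGL19 overlapped in jmj28-3 and were apart in WT. SOC1 was at the 67.6th percentile of genes above 0, and FUL at the 20th.

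**Figure D3:**
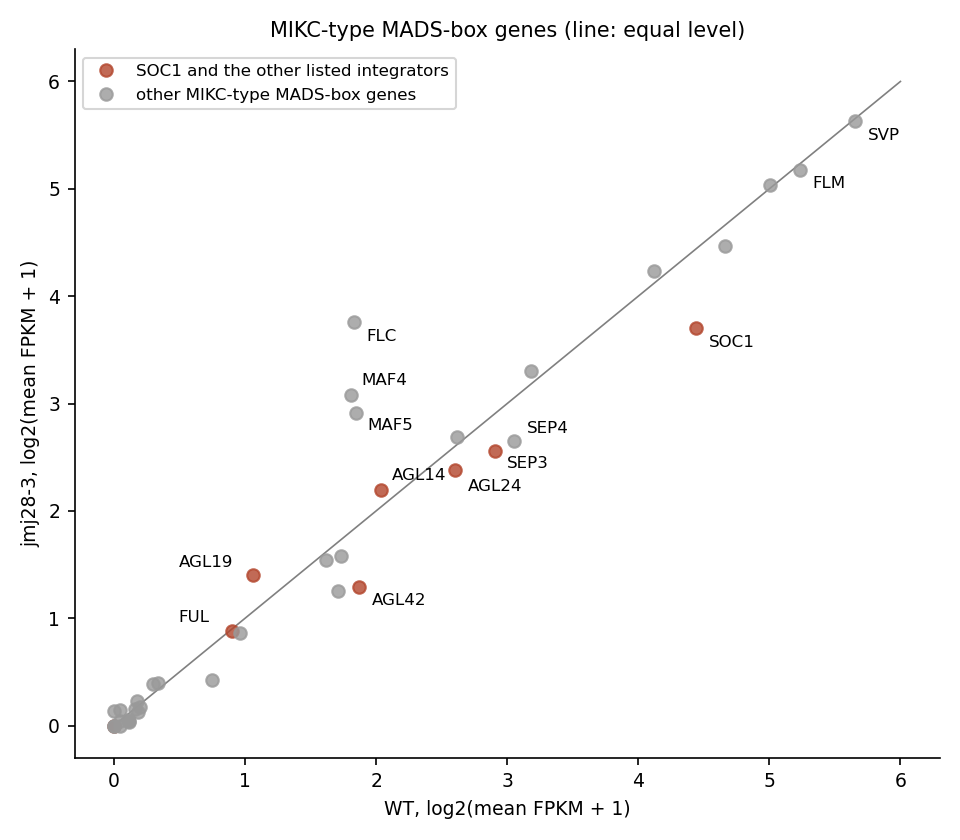
Mean level in jmj28-3 (vertical axis) against WT (horizontal axis), both as log2(mean FPKM + 1), for 39 MIKC-type MADS-box genes, with 8 members in red and a line at equal level. SOC1 and AGL42 lie below the line, FLC, MAF4 and MAF5 lie well above it, and SVP and FLM lie on it.

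The wider MIKC-type MADS-box family, the plant class with a K-domain, held 39 genes counting the 8 members other than LFY. Of the 31 not among the members, 16 were tested. At the limma threshold 3 were higher (FLC, MAF4 and MAF5) and none was lower, where 4.18% and 3.79% of all tested genes were. In this family 5 of the 16 had an unadjusted p under 0.05, where 24.2% of all tested genes did. Several of its most abundant genes were not called, such as the repressors SVP at 50.45 and 46.55 FPKM in jmj28-3 and 48.05 and 50.55 FPKM in WT (adjusted p = 0.870, limma) and FLM (adjusted p = 0.617, limma).

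Repressors known to act on SOC1 or its activators were then set beside the members. Of 17 tested, 5 were called higher, TOE1 was called lower and 11 were not called, with a median log2 change of 0.036. Over all tested genes, limma called 4.18% higher and 3.79% lower. This list was drawn up with earlier results of these data known, so its share called is no independent result. FLC, the MADS-domain repressor that binds the SOC1 and FT genes, had 12.46 and 12.61 FPKM in jmj28-3, against 2.35 and 2.76 FPKM in WT. In jmj28-3 FLC and SOC1 thus had like levels, FLC at 97.7% and 112% of the SOC1 value, against 10.6% and 14.3% in WT. The other higher genes were the FLC relatives MAF4 and MAF5, with log2 changes of 1.28 and 1.09, and the AP2/B3-type repressors TEM1 and TEM2, with 1.05 and 1.15. TOE1, an AP2-like repressor and target of miR172, had a log2 change of -0.54 (adjusted p = 0.00784, limma). MAF4 and MAF5 are tandem copies whose reads may be shared. MAF2 and MAF3, beside them on chromosome 5, were not called (adjusted p = 0.822 and 0.568, limma). Leaving out jmj28-3 replicate 2 ended all 6 calls, with adjusted p from 0.0501 for FLC to 0.242 for MAF5. Leaving out jmj28-3 replicate 1 ended those on MAF4 (0.0769), MAF5 (0.191), TEM1 (0.169), TEM2 (0.189) and TOE1 (0.0569), WT replicate 1 those on MAF4 (0.0607) and MAF5 (0.0751), and WT replicate 2 that on TOE1 (0.0534).

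Activators of the integrators were read in the same way. Of 13 tested, SPL3 was higher, SPL9 was lower and 11 were not called, with a median log2 change of -0.044. The shares called over all tested genes were 4.18% higher and 3.79% lower, and this list too was drawn up with earlier results known. SPL9, an SBP-box factor of the age pathway that binds the SOC1 gene, had 3.09 and 3.33 FPKM in jmj28-3, against 5.02 and 6.23 FPKM in WT (log2 change -0.65, adjusted p = 0.0440, limma). SPL3, a smaller SBP-box factor of the same pathway, went the other way, with 4.15 and 4.13 FPKM in jmj28-3 and 2.43 and 1.94 FPKM in WT (log2 change 0.69, adjusted p = 0.0366, limma). SPL15, which acts with SOC1 in the meristem, had 2.56 and 2.02 FPKM in jmj28-3, against 3.36 and 4.01 FPKM in WT, and was not called (adjusted p = 0.103, limma). FT and its relative TSF were low in both genotypes, TSF at 0 in all 4 libraries. FT had 0.40 and 0.63 FPKM in jmj28-3 and 1.24 and 1.08 FPKM in WT, and was not called (adjusted p = 0.141, limma). Its mean was 2.25-fold lower in jmj28-3. Both jmj28-3 libraries lay below both of WT, where 32.7% of all tested genes did so at any size of change. FT rested on about 7 and 9 fragments in jmj28-3 and about 18 and 17 in WT. FD, its partner, had 1.83 and 1.75 FPKM in jmj28-3 and 1.32 and 2.00 FPKM in WT (adjusted p = 0.825, limma). FT cycles over the day, and the labels give no hour of harvest. The calls on SPL9 and SPL3 were lost without any 1 library, at adjusted p of 0.192 and 0.169 without jmj28-3 replicate 1, 0.217 and 0.218 without jmj28-3 replicate 2, 0.0839 and 0.0828 without WT replicate 1, and 0.148 and 0.122 without WT replicate 2.

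**Figure D4:**
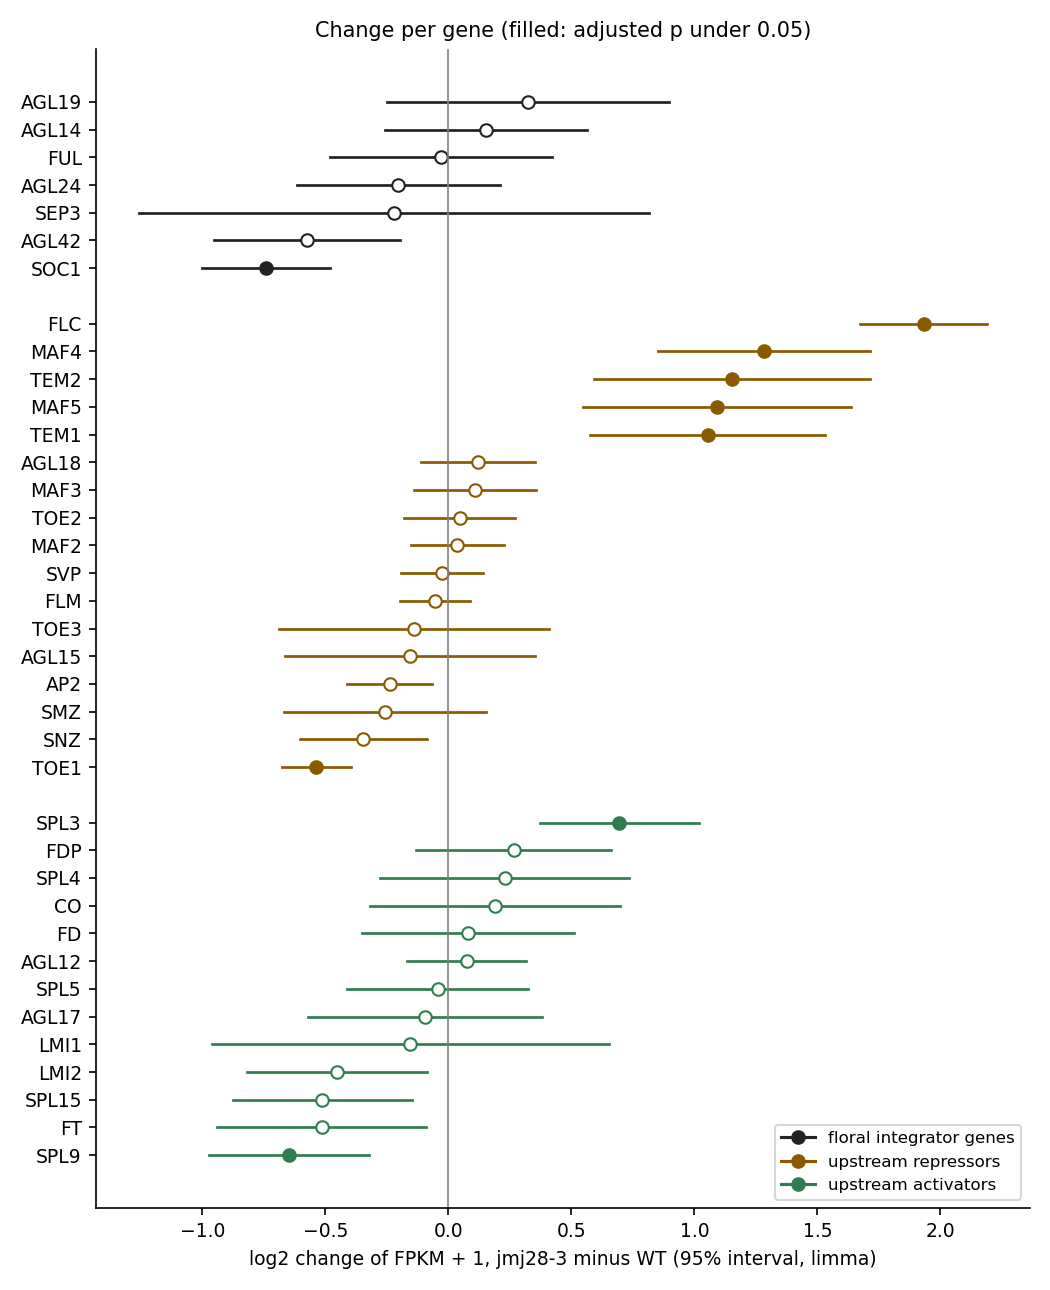
Log2 change of FPKM + 1, jmj28-3 minus WT (horizontal axis), with 95% intervals from limma for the 7 tested members, 17 upstream repressors and 13 upstream activators; filled points have an adjusted p under 0.05. SOC1 at -0.74 is the only filled member, FLC at 1.93 is the largest rise shown, and the interval of SEP3 spans -1.26 to 0.81.

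Since several members are also made in roots, marker lists were read beside them. Of 17 tested root markers, SCR, for a GRAS factor of the endodermis, was lower and 16 were not called, where 3.79% of all tested genes were called lower. SCR had 16.74 and 16.65 FPKM in jmj28-3, against 22.34 and 21.30 FPKM in WT (adjusted p = 0.0364, limma). Libraries lay apart with jmj28-3 lower for 10 of the 17 and with jmj28-3 higher for MYB36, where 32.7% and 22.4% of all tested genes did so. The summed FPKM of the root list was 1414 and 1346 in jmj28-3 and 1487 and 1459 in WT. Most of each sum was PYK10, with 1178 and 1128 FPKM in jmj28-3 and 1221 and 1183 FPKM in WT. The sums therefore say little of the other root markers. No root marker was at 0, and the list had a median log2 change of -0.14. The 10 shoot meristem markers summed to 28.4 and 28.03 FPKM in jmj28-3 and 28.8 and 30.8 FPKM in WT, with none of 5 tested called. The smallest p was that of the receptor kinase gene CLV1 (adjusted p = 0.458, limma), 2 of the 5 had both jmj28-3 libraries below both of WT, and WUS, CLV3 and CUC1 were at 0 in at least 1 library. The 8 leaf markers summed to 71035 and 69556 FPKM in jmj28-3 and 72631 and 69180 FPKM in WT, with none called. The smallest p was that of GLDP1, lower in jmj28-3 (log2 change -0.26, adjusted p = 0.0783, limma). Libraries of this list also lay apart with jmj28-3 lower for 5 of the 8 genes and higher for 1. The part of root or shoot content in the SOC1 and AGL42 values was not tested. The SCR call was lost without any 1 library, at adjusted p of 0.162 and 0.219 without jmj28-3 replicates 1 and 2 and of 0.15 and 0.106 without WT replicates 1 and 2.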

How the data were processed

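The authors deposited a table of FPKM values, a column for each library. TopHat, RSEM and edgeR, on build TAIR10, are named per the submitters' processing notes, without versions or settings. The sources used here do not say if counting used strand. Overlap of other annotated genes with the members is not reported here. The test was limma 3.58.1 (R 4.3.3) on log2(FPKM + 1), with genotype as the only term, a variance trend, a minimum mean of 0.5 FPKM, two-sided p-values and Benjamini-Hochberg adjustment over all 20232 tested genes. A log2 change on this scale understates that of low genes, and folds are ratios of mean FPKM. The fit was checked on simulated data. Fragment numbers are estimates, read from the FPKM times kilobase step worth 1 fragment in genes with 1 annotated mRNA and the median mRNA length of each gene. Symbols, positions and sequence come from RefSeq TAIR10.1, where all 98 listed identifiers were found; the FPKM table has no coordinates. The named genes are the members, JMJ28, the called genes of each related list or its gene with the smallest p, and the 5 genes most like SOC1. Other genes of the lists were named after their values were seen. The members and lists were chosen with earlier results of these data known, and the CArG search was added after seeing the values.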

Additional observations from a re-analysis of the deposited data

How the results depend on the processing

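The SOC1 change kept its direction and its call in all 10 alternatives that used the 4 libraries (adjusted p from 0.0117 to 0.0494, limma), and lost the call in the 4 that left out a library, at -0.84 to -0.64. The number of members called lower was 1 in those 10 and 0 in each leave-out, and none was called higher in any. AGL42 kept its direction in all 14 alternatives and was called in none (adjusted p from 0.0614 to 0.336). Sign changes without a call were seen for FUL with quantile normalization (0.024) and when a library was left out (-0.19 to 0.13), for AGL24 (-0.42 to 0.013) and for SEP3 (-0.86 to 0.42) when a library was left out. The causes were not tested. Over all genes, 846 were higher and 767 lower. These counts were 526 and 351 with no filter on low values, 469 and 287 with no variance trend, 534 and 328 with the replicate block, and ran from 70 to 398 and from 21 to 164 when a library was left out, which leaves 1 residual degree of freedom. The replicate numbers are shared between genotypes by label only. Differences between replicates correlated at -0.133 between genotypes over tested genes, and the crossed pairing, added after seeing the data, gave 1158 and 1129 calls. The block ended the calls on MAF5, TEM1, TEM2, SPL3, SPL9 and SCR, with adjusted p from 0.0544 to 0.0877. The lack of a filter ended the same 6 (0.0597 to 0.0976), the lack of a trend those on MAF5, TEM1, TEM2, SPL9 and SCR (0.0647 to 0.0927), and quantile normalization that on TEM2 (0.0519). Values of FUL and AGL19 rest on few fragments, and those of LFY on at most 3.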

Other observations

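The 5 tested genes whose profile over the 4 libraries was most like that of SOC1, by the root mean squared difference of centred log2(FPKM + 1), were ZIP11, AT3G20200, AT5G42510, AT5G51030 and MYB48, with differences from 0.0211 to 0.0405. The closest was ZIP11, described as a zinc transporter, with 11.27 and 10.36 FPKM in jmj28-3 and 20.39 and 17.36 FPKM in WT. MYB48, of the MYB family, had 14.0 and 12.66 FPKM in jmj28-3 and 25.06 and 20.15 FPKM in WT. With 4 libraries many genes share such a profile, and among 20231 genes ranked this way AGL42 came 599th, AGL24 7632nd, FUL 11992nd, AGL14 16642nd, SEP3 17288th and AGL19 18157th.

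Several other MIKC-type factors are known from roots, and none of the 4 tested was called. AGL44 (ANR1), known for the response of lateral roots to nitrate, had 1.31 and 1.46 FPKM in jmj28-3, against 1.92 and 2.61 FPKM in WT, and was not called (log2 change -0.45, adjusted p = 0.169, limma). AGL21 had 2.16 and 1.66 FPKM in jmj28-3 and 2.14 and 1.99 FPKM in WT (adjusted p = 0.793, limma), and AGL17 had 0.67 and 0.96 FPKM in jmj28-3 and 1.15 and 0.74 FPKM in WT (adjusted p = 0.809, limma). AGL12, also known as XAL1, had 5.30 and 5.61 FPKM in jmj28-3 and 5.20 and 5.05 FPKM in WT (log2 change 0.075, adjusted p = 0.694, limma). AGL16, known from stomata, had 19.35 and 23.02 FPKM in jmj28-3 and 23.95 and 24.75 FPKM in WT (adjusted p = 0.286, limma). TFL1, which keeps the meristem from turning floral, had 0.77 and 0.69 FPKM in jmj28-3, against 0.45 and 0.42 FPKM in WT (adjusted p = 0.385, limma).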
